A study of Mus musculus with 2 samples.

Results

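Krüppel-like factors (KLFs) are zinc finger transcription factors that bind GC boxes and CACCC boxes in promoters, and the proteins differ mainly outside their zinc fingers, in the regions that recruit coactivators or corepressors. The genes described here are the 8 KLF genes Klf2, Klf3, Klf4, Klf5, Klf6, Klf7, Klf12 and Klf15, which stand outside the subgroup whose proteins bind the Sin3 corepressor. They were chosen by symbol and are 8 of the 35129 genes in the tables. Klf3 and Klf12 encode repressors that recruit the corepressor CtBP, and the others are known mostly as activators. In liver, KLF15 is known for fasting and glucocorticoid control of amino acid breakdown and glucose output, KLF6 for its early appearance after injury, and KLF2 and KLF4 as factors of endothelial cells.

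Transcript levels came from RNA sequencing of primary hepatocytes of C57BL/6 mice. The cells of one sample had received an adenovirus carrying KLF14 (Ad-KLF14), a KLF of the Sin3-binding subgroup, and those of the other a control adenovirus labelled GFP (Ad-GFP), which the design text calls an empty vector, so both were infected. Each virus is represented by 1 table of FPKM values (fragments per kilobase of gene model, scaled to library size), treated as 1 library. There are no replicates and no test between the viruses was possible, so every difference below describes these 2 libraries. Triplicates are mentioned in the design text, but no label says if several cultures were pooled into a table. Time after infection, virus dose, and age and sex of the mice are not given in the sources used here.

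Read totals recovered from the values were 11151711 for Ad-KLF14 and 11311344 for Ad-GFP, and they may be off by a shared whole factor. Read numbers of genes are the smallest whole numbers that give the ratio, and counting intervals rest on them and cover counting error only. Klf14 itself had 13164 FPKM with Ad-KLF14 and 0.298 FPKM with Ad-GFP. Genes averaging 1 FPKM or more were kept. These were 12419 genes, and all 8 KLF members were among them. The hepatocyte gene albumin, Alb, was at 4172 FPKM with Ad-KLF14 and 5115 FPKM with Ad-GFP. A set of 9 hepatocyte markers summed to 5361 FPKM with Ad-KLF14 and 6539 FPKM with Ad-GFP, with none at 0 and Alb most of both sums. Of the 9, 2 were higher and 7 lower with Ad-KLF14. Their median log2(FPKM + 1) difference, Ad-KLF14 minus Ad-GFP, was −0.25, against −0.03 over all kept genes.

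The members went in both directions. Relative to Ad-GFP, the FPKM values of Klf5, Klf6, Klf7, Klf12 and Klf15 were higher with Ad-KLF14, and those of Klf2, Klf3 and Klf4 were lower. Only Klf4 was at least 2-fold apart on log2(FPKM + 1), the scale used to count genes. That is 1 of 8 members at least 2-fold lower, where 8.99% of all kept genes were, and 0 of 8 at least 2-fold higher, where 6.37% were. The median log2 difference, Ad-KLF14 minus Ad-GFP, was 0.36 over the 8 members and −0.03 over all kept genes. On the plain FPKM ratio, 4 members were at least 1.5-fold higher (19.7% of kept genes were) and 3 at least 1.5-fold lower (24.4% of kept genes were). On log2(FPKM + 1), 5 members were at least 1.5-fold apart in either direction, where 37.7% of kept genes were.

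**Figure D1:**
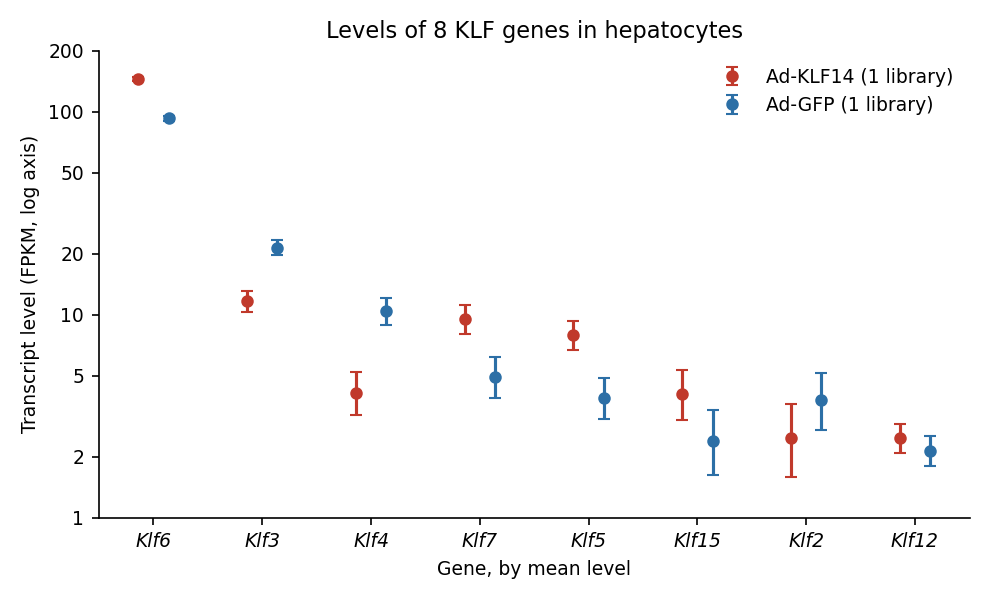
Levels of the 8 KLF genes in FPKM on a log axis, ordered by mean level, with Ad-KLF14 (red) left of Ad-GFP (blue). Points are the value of 1 library each and bars are exact Poisson 95% intervals of its recovered reads, so they show counting error only. Klf6 is far above the others at 145 FPKM with Ad-KLF14 and 92.9 FPKM with Ad-GFP.

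Klf6 made up most of the transcript of the group. It was at 145 FPKM with Ad-KLF14 and at 92.9 FPKM with Ad-GFP, a ratio of 1.56 (95% counting interval 1.502 to 1.621) from at least 6819 reads with Ad-KLF14 and 4433 with Ad-GFP. The level of Klf6 exceeded that of 96.4% of kept genes with Ad-KLF14 and of 93.1% with Ad-GFP. Of the summed FPKM of the 8 members, 187 with Ad-KLF14 and 142 with Ad-GFP, Klf6 supplied 77.4% with Ad-KLF14 and 65.5% with Ad-GFP. Without Klf6 the order of the sums turned round, to 42.3 FPKM with Ad-KLF14 and 49.0 FPKM with Ad-GFP. Klf14 in the Ad-KLF14 library was 70.3 times the sum of all 8.

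Klf5, a growth-related factor of intestinal crypts and smooth muscle, was at 7.94 FPKM with Ad-KLF14 and 3.89 FPKM with Ad-GFP. Its ratio of 2.04 (counting interval 1.54 to 2.73) was the largest of the 8, but the log2(FPKM + 1) difference of 0.87 stayed under 2-fold because the pseudocount of 1 FPKM shrinks low genes. With a pseudocount of 0.1 FPKM it was 1.01, past 2-fold. Klf7, known from neuronal development and as an inhibitor of fat cell differentiation, was at 9.54 FPKM with Ad-KLF14 and 4.93 FPKM with Ad-GFP, a ratio of 1.93 (1.45 to 2.59). The log2 differences of Klf5 and Klf7 lay above those of 91.2% and 90.3% of kept genes. The level of Klf5 relative to Klf7 was nearly equal in both libraries, 0.832 with Ad-KLF14 and 0.788 with Ad-GFP.

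Klf15 was at 4.07 FPKM with Ad-KLF14 and 2.39 FPKM with Ad-GFP, a ratio of 1.70. Its reads were few, at least 52 reads with Ad-KLF14 and 31 with Ad-GFP, and the counting interval ran from 1.07 to 2.75. The log2 difference was 0.58, above that of 83.1% of kept genes.

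Klf4, one of the reprogramming factors and a regulator of epithelial barriers, was at 4.12 FPKM with Ad-KLF14 and 10.4 FPKM with Ad-GFP. It was 2.52-fold lower (counting interval 1.90 to 3.37), from at least 70 reads with Ad-KLF14 and 179 with Ad-GFP, and its log2 difference of −1.15 was below that of all but 6.27% of kept genes. Among the 4566 kept genes with a mean from 5 to 20 FPKM, the range that holds Klf4, 10.1% were at least 2-fold lower. With a pseudocount of 5 FPKM the log2 difference of Klf4 was −0.75, under 2-fold. Klf2, a flow-responsive factor of endothelium and of resting T cells, was at 2.47 FPKM with Ad-KLF14 and 3.80 FPKM with Ad-GFP, a ratio of 0.650. With at least 25 reads with Ad-KLF14 and 39 with Ad-GFP the counting interval of Klf2 was 0.377 to 1.10, so a difference was not detectable from these smallest read numbers. With the reads doubled, which brings the implied gene length near a reference transcript, the interval was 0.446 to 0.939.

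The CtBP-binding pair divided. Klf3, which shuts off genes in erythroid and fat cells, was at 11.7 FPKM with Ad-KLF14 and 21.4 FPKM with Ad-GFP, which is 1.84-fold lower (counting interval 1.59 to 2.12) from at least 301 reads with Ad-KLF14 and 561 with Ad-GFP. Its log2 difference of −0.82 stayed under 2-fold. Klf12, named first as a repressor of the AP-2alpha gene, was at 2.47 FPKM with Ad-KLF14 and 2.14 FPKM with Ad-GFP, a ratio of 1.15 whose interval, 0.912 to 1.46, held 1. The remaining CtBP-binding factor, Klf8, was at 0.0402 FPKM with Ad-KLF14 and 0.0198 FPKM with Ad-GFP from at least 2 reads with Ad-KLF14 and 1 with Ad-GFP, too few for a fold.

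**Figure D2:**
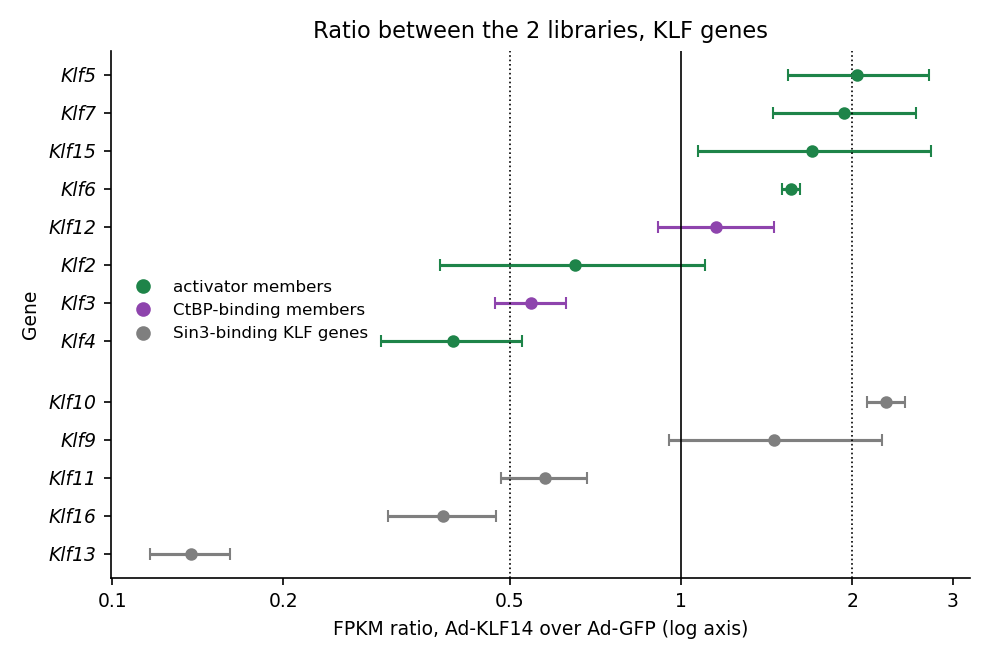
FPKM ratio of Ad-KLF14 over Ad-GFP on a log axis for the 8 members (upper block, activators in green, CtBP-binding in purple) and 5 Sin3-binding KLF genes other than Klf14 (grey). Bars are exact 95% counting intervals, the solid line is 1 and the dotted lines are 2-fold. The 8 members lie between 0.397 for Klf4 and 2.04 for Klf5, and Klf13 lies at 0.137.

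The ranking of the members by level differed between the libraries. With Ad-KLF14 it ran Klf6, Klf3, Klf7, Klf5, Klf4, Klf15, Klf2 and Klf12. Only the steps below Klf6 and below Klf5 were wider than the counting intervals of the levels. With Ad-GFP it ran Klf6, Klf3, Klf4, Klf7, Klf5, Klf2, Klf15 and Klf12, and the steps below Klf6, Klf3 and Klf4 were wider than the intervals. Klf4 stood below Klf5 with Ad-KLF14 and above it with Ad-GFP, since its level was 0.519 times that of Klf5 in the Ad-KLF14 library and 2.67 times in the Ad-GFP library. Klf3 was 1.22 times Klf7 with Ad-KLF14 and 4.34 times with Ad-GFP. Of the 28 pairs of members, 15 had counting intervals of the ratio that did not overlap, and each of these pairs held Klf2, Klf3, Klf4 or Klf12. The share of such pairs among all kept genes was not computed, and overlap depends on read numbers. The count is therefore not read as a trait of these genes.

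**Figure D3:**
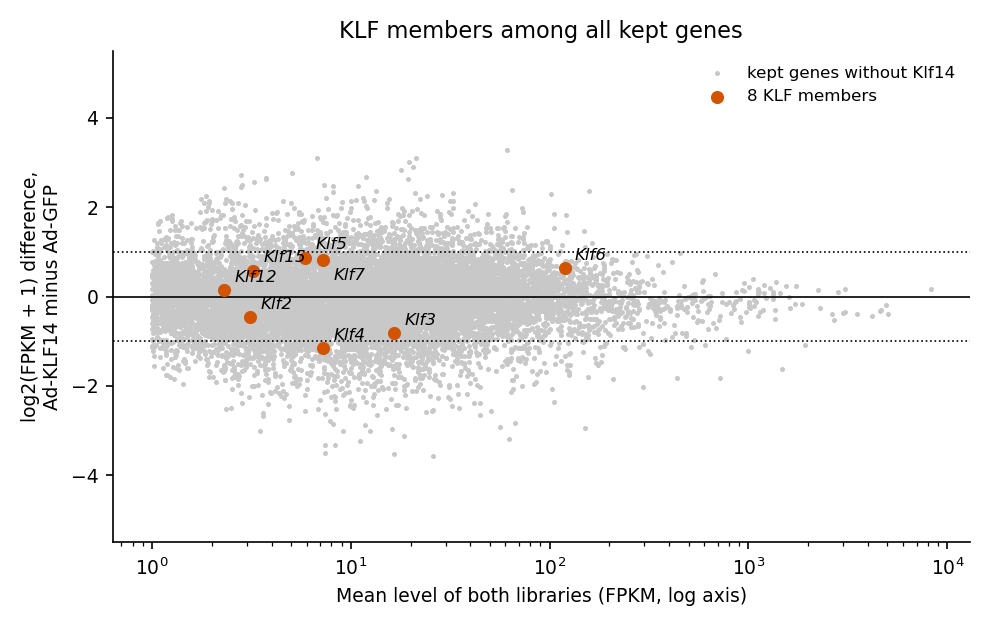
Difference in log2(FPKM + 1), Ad-KLF14 minus Ad-GFP, against the mean level in FPKM on a log axis. Grey points are the kept genes without Klf14 (1 lies outside the axis), orange points are the 8 KLF members and the dotted lines mark 2-fold. The members sit within the cloud of all genes, and Klf4, at −1.15, is the 1 member past a dotted line.

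Promoter sequence was compared because KLF proteins bind CACCC boxes, including those of other KLF genes. RefSeq windows on GRCm38.p6 from 250 bases before to 50 after the start were found for 7 of the 8 members, and for Klf5 none was used. The windows of Klf3 and Klf4, the pair whose counting intervals lay below 1, and of Klf7, which was higher, are printed in the direction of transcription with each CACCC, or GGGTG on the opposite strand, in capitals. They lie at chr5:64803271-64803570 (plus strand, Klf3), chr4:55532426-55532725 (minus strand, Klf4) and chr1:64121340-64121639 (minus strand, Klf7).
Klf3: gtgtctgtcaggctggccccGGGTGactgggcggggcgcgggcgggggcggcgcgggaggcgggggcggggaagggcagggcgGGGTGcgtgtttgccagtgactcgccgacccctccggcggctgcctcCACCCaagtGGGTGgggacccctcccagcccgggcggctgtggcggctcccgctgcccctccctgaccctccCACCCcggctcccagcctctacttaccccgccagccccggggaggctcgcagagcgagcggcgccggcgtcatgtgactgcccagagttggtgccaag
Klf4: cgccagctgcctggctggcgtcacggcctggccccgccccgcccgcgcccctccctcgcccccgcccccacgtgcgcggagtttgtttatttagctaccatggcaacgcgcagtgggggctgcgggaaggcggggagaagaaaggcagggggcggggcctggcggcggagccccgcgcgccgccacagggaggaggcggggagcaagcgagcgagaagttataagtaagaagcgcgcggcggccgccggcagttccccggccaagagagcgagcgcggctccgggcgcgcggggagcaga
Klf7: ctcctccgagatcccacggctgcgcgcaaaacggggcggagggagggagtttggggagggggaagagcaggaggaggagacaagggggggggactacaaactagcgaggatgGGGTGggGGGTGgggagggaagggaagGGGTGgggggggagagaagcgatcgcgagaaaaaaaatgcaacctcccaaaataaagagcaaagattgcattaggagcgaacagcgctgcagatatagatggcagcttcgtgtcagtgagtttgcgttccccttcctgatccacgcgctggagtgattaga
The Klf3 window held 5 CACCC matches and the Klf7 window 3, both strands counted. The Klf4 window held 0. Among all 32851 RefSeq windows of this length, 57.5% held at least 1 match, 9.35% held 3 or more and 1.02% held 5 or more. Klf6 and Klf15, whose counting intervals also lay above 1, held 0 and 1 matches. A link between these letters and the direction of a gene was not tested.

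The other windows gave 1 CACCC match each in Klf2, Klf12 and Klf15 and 0 in Klf6. The GC box letters GGGCGG, with CCGCCC on the opposite strand, occurred 6 times in Klf3, 4 times in Klf4, 2 times in Klf2, 1 time each in Klf6, Klf7 and Klf15 and 0 times in Klf12, and 35.7% of all windows held them. Across the 7 windows, 1 CACCC match overlapped a GC box. The Klf12 window was 45.7% G and C with 6 CpG and the only one with TATAAA, which 13.6% of all windows hold on either strand. The others ranged from 58.3% in Klf7 to 76.7% in Klf3, against a median of 52.7% over all windows. These matches describe the letters only, and no binding was measured.

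The Sin3-binding KLF genes other than Klf14, given for comparison, had ratios from 0.137 (Klf13) to 2.29 (Klf10). Klf13 was at 2.40 FPKM with Ad-KLF14 and 17.4 FPKM with Ad-GFP, Klf16 at 7.84 FPKM with Ad-KLF14 and 20.6 FPKM with Ad-GFP, Klf10 at 61.5 FPKM with Ad-KLF14 and 26.8 FPKM with Ad-GFP, Klf11 at 4.66 FPKM with Ad-KLF14 and 8.10 FPKM with Ad-GFP and Klf9 at 16.9 FPKM with Ad-KLF14 and 11.6 FPKM with Ad-GFP. Of these 5 genes, 1 was 2-fold higher or more and 2 were 2-fold lower or more, against 6.37% and 8.99% of all kept genes. A difference between the subgroups could not be tested with 1 library each. In the Ad-KLF14 library Klf10 and Klf9 were above every member except Klf6. The erythroid Klf1 was at 1.29 FPKM with Ad-KLF14 and 0.461 FPKM with Ad-GFP, from at least 11 reads with Ad-KLF14 and 4 with Ad-GFP, and Klf17 was listed at 0 with Ad-KLF14 and 0.0246 FPKM with Ad-GFP.

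CtBP1 and CtBP2 are the corepressors that KLF3, KLF8 and KLF12 recruit. Ctbp1 was at 20.8 FPKM with Ad-KLF14 and 49.5 FPKM with Ad-GFP, 2.38-fold lower (counting interval 2.14 to 2.64). Ctbp2 was at 2.84 FPKM with Ad-KLF14 and 2.52 FPKM with Ad-GFP, a ratio of 1.13 with an interval from 0.872 to 1.45. The median log2 difference of 19 kept genes of the CtBP complex and its partners was 0.02. Of these 19, none was 2-fold higher and 3 were 2-fold lower or more, against 6.37% and 8.99% of all kept genes. The 3 were Ctbp1, Rcor3, a subunit that pairs with the demethylase LSD1 (2.81 FPKM with Ad-KLF14 and 9.99 FPKM with Ad-GFP), and Fhl3, a LIM protein that binds KLF factors (4.42 FPKM with Ad-KLF14 and 19.7 FPKM with Ad-GFP). Zfp217 was at 6.53 FPKM with Ad-KLF14 and 13.2 FPKM with Ad-GFP.

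Coactivators are the counterpart on the activator side. Of 11 genes of acetyltransferases and chromatin coactivators, 0 were at least 2-fold apart, with a median of −0.10. The acetyltransferase genes Ep300 and Crebbp, whose proteins act with several activator KLFs, were at 13.6 and 4.71 FPKM with Ad-KLF14 and at 15.5 and 7.84 FPKM with Ad-GFP. Ncoa3 had the largest difference in this list (19.1 FPKM with Ad-KLF14 and 9.87 FPKM with Ad-GFP), and Kat2a was at 10.7 FPKM with Ad-KLF14 and 19.1 FPKM with Ad-GFP. Ncoa2 was at 9.88 FPKM with Ad-KLF14 and 16.9 FPKM with Ad-GFP, and Smarca2 at 12.8 FPKM with Ad-KLF14 and 7.47 FPKM with Ad-GFP.

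Several ubiquitin ligases are known to mark KLF proteins for breakdown. Smurf1, which acts on KLF2, was at 7.43 FPKM with Ad-KLF14 and 23.5 FPKM with Ad-GFP, 3.16-fold lower (counting interval 2.71 to 3.69). In a list of 9 genes, such ligases and other partners that act on KLF proteins, it was the 1 at least 2-fold lower. Of all kept genes 8.99% were. None of the 9 was at least 2-fold higher, where 6.37% of all kept genes were, and the median was −0.40. Wwp1, a ligase for KLF5, was at 12.6 FPKM with Ad-KLF14 and 16.9 FPKM with Ad-GFP, and Fbxw7 was at 7.65 FPKM with Ad-KLF14 and 6.45 FPKM with Ad-GFP. Smurf2 was at 14.6 FPKM with Ad-KLF14 and 26.9 FPKM with Ad-GFP, and Vhl at 7.65 FPKM with Ad-KLF14 and 10.6 FPKM with Ad-GFP. Parp1, listed as a partner and not as a ligase, was at 26.1 FPKM with Ad-KLF14 and 35.4 FPKM with Ad-GFP. Protein levels of the KLF factors were not measured.

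**Figure D4:**
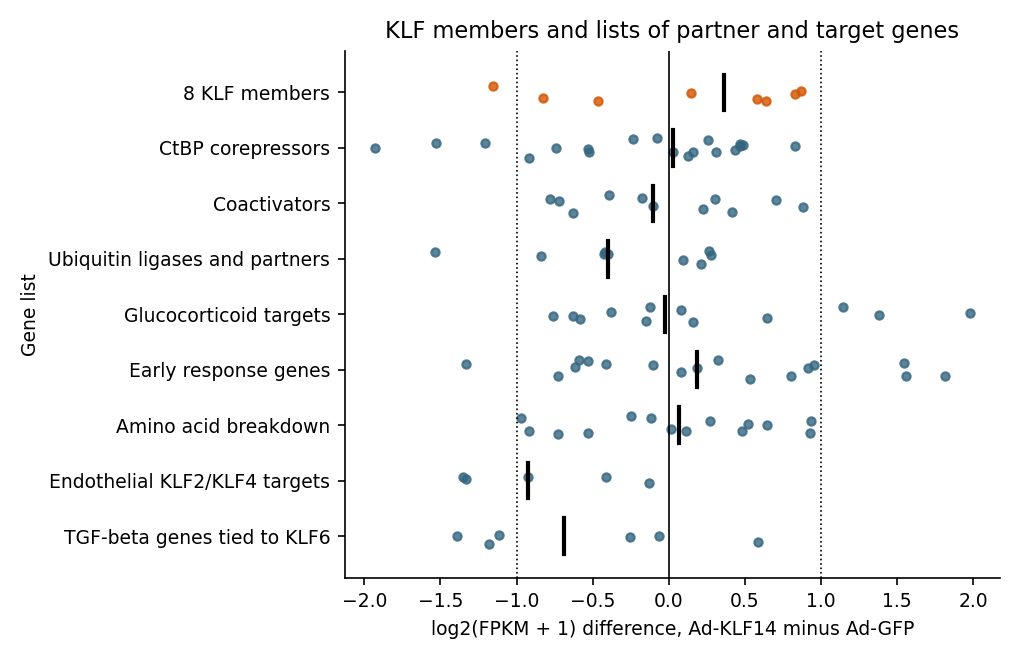
Difference in log2(FPKM + 1), Ad-KLF14 minus Ad-GFP, of each kept gene in the 8 KLF members (orange) and in 8 lists of partner and target genes (blue), with vertical jitter. Black bars are medians and dotted lines mark 2-fold. The medians of the endothelial target and TGF-beta lists, −0.92 and −0.69, depend on the filter and are −0.27 and −0.18 without it.

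Klf15 is a glucocorticoid target gene, and glucocorticoid targets were mixed. Of 12, 3 had values at least 2-fold higher and none was 2-fold lower, against 6.37% and 8.99% of all kept genes. The median was −0.02. The kinase gene Sgk1 was at 18.3 FPKM with Ad-KLF14 and 6.40 FPKM with Ad-GFP, the cell cycle inhibitor gene Cdkn1c at 14.8 FPKM with Ad-KLF14 and 3.01 FPKM with Ad-GFP, and the clock gene Per1 at 12.9 FPKM with Ad-KLF14 and 5.31 FPKM with Ad-GFP. Errfi1 was at 96.9 FPKM with Ad-KLF14 and 165 FPKM with Ad-GFP. The receptor gene Nr3c1 was at 17.9 FPKM with Ad-KLF14 and 19.6 FPKM with Ad-GFP.

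Amino acid breakdown genes, the pathway tied to KLF15 in liver, showed no gene of 14 at least 2-fold apart, with a median of 0.06. Proline dehydrogenase, Prodh, was at 13.7 FPKM with Ad-KLF14 and 12.6 FPKM with Ad-GFP (ratio interval 0.934 to 1.27). The alanine aminotransferase Gpt2 was at 42.5 FPKM with Ad-KLF14 and 81.2 FPKM with Ad-GFP. Got1 was at 60.8 FPKM with Ad-KLF14 and 31.5 FPKM with Ad-GFP, and Cbs at 25.4 FPKM with Ad-KLF14 and 12.8 FPKM with Ad-GFP.

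Klf2, Klf4 and Klf6 are also induced early after growth factor or stress signals, like the AP-1 and EGR genes. Of 17 kept early response genes, 3 had values at least 2-fold higher and 1 was 2-fold lower or more. The shares of all kept genes were 6.37% and 8.99%. The median of the list was 0.18. Egr1 was at 75.3 FPKM with Ad-KLF14 and 25.1 FPKM with Ad-GFP, Atf3 at 115 FPKM with Ad-KLF14 and 38.4 FPKM with Ad-GFP, and Fosb at 4.99 FPKM with Ad-KLF14 and 0.702 FPKM with Ad-GFP, the last from at least 7 reads with Ad-KLF14 and 1 with Ad-GFP. Fosb was kept only through its Ad-KLF14 value, and its ratio interval, 0.912 to 320, held 1. With a minimum mean of 5 FPKM, or a pseudocount of 5 FPKM, 2 genes of the list were past 2-fold. The nuclear receptor gene Nr4a1 went the other way, at 1.92 FPKM with Ad-KLF14 and 6.35 FPKM with Ad-GFP.

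KLF6 is known to act on genes of TGF-beta signalling, and most of these had lower values with Ad-KLF14. Of 6 kept, none was 2-fold higher and 3 were 2-fold lower or more, against 6.37% and 8.99% of all kept genes. The median was −0.69. With no filter it was −0.18. The ligand gene Tgfb1 was at 12.2 FPKM with Ad-KLF14 and 33.7 FPKM with Ad-GFP, the type I receptor gene Tgfbr1 at 3.45 FPKM with Ad-KLF14 and 8.66 FPKM with Ad-GFP, and the urokinase gene Plau at 1.19 FPKM with Ad-KLF14 and 3.96 FPKM with Ad-GFP. The type II receptor gene Tgfbr2 was at 36.3 FPKM with Ad-KLF14 and 23.8 FPKM with Ad-GFP.

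In the list of endothelial KLF2 and KLF4 targets, 5 of 8 genes were kept, with a median of −0.92. Of these 5, 2 were 2-fold lower or more, where 8.99% of all kept genes were. Edn1 and Thbd were kept only through their Ad-GFP values, and with no filter the median over all 8 was −0.27. Nfe2l2, which encodes the antioxidant regulator Nrf2, was at 67.8 FPKM with Ad-KLF14 and 172 FPKM with Ad-GFP, and the adhesion gene Vcam1 at 14.7 FPKM with Ad-KLF14 and 39.1 FPKM with Ad-GFP. Endothelin 1, Edn1, was at 0.421 FPKM with Ad-KLF14 and 1.70 FPKM with Ad-GFP, and thrombomodulin, Thbd, at 0.917 FPKM with Ad-KLF14 and 1.55 FPKM with Ad-GFP. In endothelium KLF2 is known to lower Vcam1 and Edn1 and to raise Thbd and Nos3. Endothelial nitric oxide synthase, Nos3, was at 0.152 FPKM with Ad-KLF14 and 0.129 FPKM with Ad-GFP and was not among the kept genes.

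Klf2 and Klf4 are strongly expressed in endothelial cells, so the markers of other liver cells are given beside them. In a bulk culture, fewer cells of a type and less RNA per cell cannot be told apart. The 15 endothelial markers summed to 13.9 FPKM with Ad-KLF14 and 17.5 FPKM with Ad-GFP, and none was at 0. Of 5 kept, 1 was at least 2-fold lower on log2(FPKM + 1), where 8.99% of all kept genes were. This was Oit3, at 0.990 FPKM with Ad-KLF14 and 3.87 FPKM with Ad-GFP, kept only through its Ad-GFP value. Flt4 was at 2.04 FPKM with Ad-KLF14 and 5.03 FPKM with Ad-GFP, 2.46-fold lower on the plain ratio (counting interval 2.01 to 3.03). Pecam1 was at 2.04 FPKM with Ad-KLF14 and 1.12 FPKM with Ad-GFP, and Cdh5 at 2.09 FPKM with Ad-KLF14 and 1.75 FPKM with Ad-GFP, and the ratio intervals of both held 1 (0.906 to 3.77 for Pecam1 and 0.875 to 1.63 for Cdh5). The 10 macrophage markers with a value summed to 207 FPKM with Ad-KLF14 and 138 FPKM with Ad-GFP, most of it Cd68 (160 FPKM with Ad-KLF14 and 71.1 FPKM with Ad-GFP), and Cd163 was listed at 0 with Ad-GFP. Among 6 kept, 1 was at least 2-fold higher (Cd68) and 1 at least 2-fold lower (Mpeg1), against 6.37% and 8.99% of all kept genes. The 12 stellate cell and fibroblast markers summed to 9.68 FPKM with Ad-KLF14 and 6.83 FPKM with Ad-GFP, with Hand2 at 0 in both. The 8 cholangiocyte markers summed to 247 FPKM with Ad-KLF14 and 806 FPKM with Ad-GFP, nearly all from Spp1 and Cldn4. Of 4 kept, 2 were at least 2-fold lower and none was 2-fold higher, against 8.99% and 6.37% of all kept genes. The median of the 4 was −0.91, and Krt7 was among the markers at 0 in both. The part of these cells in the values of Klf2 and Klf4 was not tested.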

How the data were processed

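RNA of primary hepatocytes infected with Ad-KLF14 or Ad-GFP was sequenced, 1 sample each. Trizol extraction of total RNA was followed by Illumina TruSeq library preparation, per the labels' protocols. Reads were handled with Bowtie 0.12.2 on build mm8, per the submitters' processing notes. The design text names other aligners and retinal profiles, so it may belong in part to another study. Gene models, counting rule and use of strand are not given in the sources used here, so reads of overlapping genes on opposite strands could not be told apart. The authors deposited FPKM values per gene, 1 table per library.

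Fold changes are ratios of FPKM for named genes, and differences of log2(FPKM + 1) for counts of genes at least 2-fold apart, over genes averaging 1 FPKM or more. The pseudocount understates differences of low genes. Reads were recovered from the steps of the values. Ratios between the libraries were ratios of whole numbers times a constant (relative tolerance 1e-11) for 100.0% of 16944 genes above 0 in both. The constant fixes the totals up to a whole factor. The factor 9 was chosen since 34.0% of the implied lengths of 6726 genes then lay within 1% of a GENCODE transcript, against 7.27% for the next best factor. Read numbers are the smallest that give the ratio and so lower limits, which makes intervals too wide where the true number is a multiple. Ratio intervals are exact Clopper-Pearson 95% intervals, level intervals exact Poisson, and both cover counting error only. The procedure was tested on simulated data. Their gene lengths came from the same GENCODE transcripts, so the test could not check the factor chosen for these libraries.

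Named were all KLF genes, Ctbp1 and Ctbp2 and up to 4 members of each other list with the largest log2 difference. Some listed genes that this rule names are not reported here. Ep300, Crebbp, Wwp1, Fbxw7, Nr3c1, Prodh, Nos3, Cd68, Cd163, Mpeg1 and the other markers were added after their values were seen. Members and lists were chosen with earlier results of these data known. No genes of like pattern were named, since 2 libraries give 1 ratio per gene. Python 3.11.15, numpy 2.4.6, pandas 2.3.3, scipy 1.17.1 and matplotlib 3.10.9 were used.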

Additional observations from a re-analysis of the deposited data

How the results depend on the processing

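No paired analysis was possible because each group holds 1 sample, and for the same reason none could be left out. Changed pseudocounts and filters could not turn the direction of a member, which does not depend on them. Under the 3 scalings, which could, all 8 members kept their direction. With a pseudocount of 0.1 FPKM, 2 members were at least 2-fold apart (Klf5 joined Klf4), and with one of 5 FPKM 0 were, with Klf4 at −0.75. Of the 12419 kept genes, 1101 were at least 2-fold higher and 1491 lower with 0.1 FPKM, and 295 and 467 with 5 FPKM. At 1.5-fold on log2(FPKM + 1), 5 members were apart, where 37.7% of kept genes were. Klf6 was at 0.73 with the libraries scaled to an equal sum without Klf14. That scaling moved the median of all genes by 0.08, the largest shift of the 3 scalings. The median of the members was 0.64 over the 5 with a mean of at least 5 FPKM.

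Among the lists, the endothelial target median was −1.35 with a pseudocount of 0.1 FPKM, −0.31 with 5 FPKM, −0.27 with no filter and −1.34 at a minimum of 5 FPKM. The TGF-beta median was −0.39 with a pseudocount of 5 FPKM (1 gene at least 2-fold apart) and −0.18 with no filter. Of early response genes 2 were at least 2-fold apart both with a pseudocount of 5 FPKM and at a minimum of 5 FPKM. Of amino acid breakdown genes 1 was with a pseudocount of 0.1 FPKM and 2 with the equal sum. With the equal sum, 979 of the 12419 kept genes were at least 2-fold higher and 938 lower. At a minimum of 5 FPKM these numbers were 543 and 789 of 9098 genes. Trimmed mean and upper quartile scaling left each of these list medians between the median lower and the median upper counting bound of its genes. They left each list count within 1.5 times. The remaining KLF genes Klf1, Klf8 and Klf17 passed no filter and got no median.

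Depth limits Klf2 and Klf15 most. In an alternative added after seeing the data, reads were multiplied by up to 3 where that brought the implied gene length within 5% of a reference transcript. Klf2 then had 50 reads with Ad-KLF14 and 78 with Ad-GFP and a ratio interval from 0.446 to 0.939, below 1, unlike the interval from the smallest reads. The intervals of Klf4, Klf5 and Klf15 narrowed on the same side of 1.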
